A study of Homo sapiens with 12 samples.

Results

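CAL-27 is an established cell line from a squamous cell carcinoma of the tongue, and the data described here compare it with and without a knockdown of TTK, a mitotic kinase, over all genes. The comparison used the 3 CAL-27 shTTK libraries and the 3 CAL-27 shControl libraries, which are 6 of the 12 libraries of the series. The other 6 come from SCC-15, a second oral squamous cell carcinoma line with the same groups of 3, and enter here through the shared estimate of spread and through 1 test of the difference between the lines. RNA was selected for poly(A) tails and sequenced as strand-specific paired reads of 150 bases. The CAL-27 shTTK libraries carry the genotype label TTK knockdown. The CAL-27 shControl libraries are also labelled WT, so the labels do not settle whether the control cells carried a hairpin. Neither group was treated with an agent, all libraries carry the label batch 1, and no hairpin sequence, clone or duration of knockdown is given in the sources used here. Nothing says that the numbered replicates came from separate cultures, so a p-value here reflects no more than how these libraries varied, and that variation may be technical.

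TTK, also called MPS1, is a kinase of the spindle assembly checkpoint, which delays the separation of sister chromatids until each kinetochore is attached to microtubules. Keratinocytes, the cells from which these carcinomas arise, are usually described by the keratins they make. KRT5 and KRT14 form the filaments of basal cells under the control of the p63 transcription factor, KRT6A, KRT6B, KRT16 and KRT17 appear in wounded or stressed epithelium, and KRT8 and KRT18 are the pair of simple epithelia.

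Each CAL-27 library held between 16176655 and 18484112 counts. No CAL-27 library stood apart: of the variance among the 6 libraries, the first principal component took 62.8% and separated shTTK from shControl, and the second took 9.97%. Of 10 epithelial markers 9 were abundant in all 6 libraries, 5 rose and 5 fell, with CDH1 at 451 ± 7.75 CPM (counts scaled to a library total of 1000000, with TMM factors) and EPCAM at 277 ± 4.23 CPM in the control libraries, while KRT19 was at 0.827 ± 0.0962 CPM. Of the defining markers of other cell types, PTPRC and TYROBP of leukocytes, DCN of fibroblasts and KDR and EMCN of endothelium were at 0 CPM in all 6 libraries. The summed CPM of the 8 fibroblast markers lay between 31.9 and 37.6 in the control libraries and between 41.5 and 42.3 in the shTTK libraries. Of these 8 markers 2 rose and none fell. For the 8 leukocyte markers, of which CD14 and CORO1A rose and LCP1 fell (CD14 not without shControl replicate 1 or 2 or shTTK replicate 2 or 3), the sums lay between 28.0 and 36.2 and between 37.4 and 38.8. For the 8 endothelial markers, nearly all of it CDH5, which fell as did the rare PECAM1 (not without shControl replicate 2 or 3 or shTTK replicate 2 or 3), they lay between 102 and 110 and between 73.6 and 75.1. The part of these markers in the results was not tested, and in such bulk samples fewer cells of a kind and less RNA per cell cannot be told apart.

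TTK mRNA itself was lower in CAL-27 shTTK. The control libraries held 46.4, 48.4 and 53.4 CPM and the shTTK libraries 35.6, 32.5 and 33.5 CPM, so that the groups did not overlap, which held for 38.4% of all genes tested. The log2 fold change was -0.54 ± 0.066 (SE), with an edgeR adjusted p = 4.04e-10 (quasi-likelihood test, Benjamini-Hochberg over all genes tested). The gene lies on chromosome 6 from 80003887 to 80042527 of GRCh38, on the plus strand.

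Over the whole transcriptome, many genes moved by a little and a small number by much. Of 16946 genes tested, 4618 were called changed, meaning an edgeR adjusted p under 0.05, which is 27.3% of the genes tested. Of these, 1961 rose (11.6% of the genes tested) and 2657 fell (15.7%). Among the genes that rose 70.2% changed by less than 1.5-fold, and among those that fell 86.3% did. A rise of at least 2-fold was found in 277 genes (1.63%) and a fall of at least 2-fold in 148 (0.873%). Of the called genes, 52 rose and 24 fell by 4-fold or more, although 28 called genes had 3 counts or fewer over all libraries of a group and their fitted folds are not measured ones. Falls outnumbered rises among the called genes, and rises outnumbered falls among the large changes.

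The share of genes called followed the level of the gene, and so did the balance of the directions. With the tested genes ordered by their mean level in CAL-27 and divided into 10 equal groups, 6.25% of the lowest group and 57.2% of the highest group were called. In the lowest group 4.25% rose and 2.01% fell, and in the highest group 19.6% rose and 37.6% fell. The median standard error of a log2 fold change was 0.55 in the lowest group and 0.035 in the highest, and all calls of the lowest group were of at least 2-fold while the called genes of the highest group had a median change of 0.18 on the log2 scale. Of the 13449 protein-coding genes tested 1733 rose and 2518 fell, whereas of 2194 long noncoding RNA genes 148 rose and 93 fell, and of 1020 pseudogenes 60 rose and 33 fell.

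**Figure D1:**
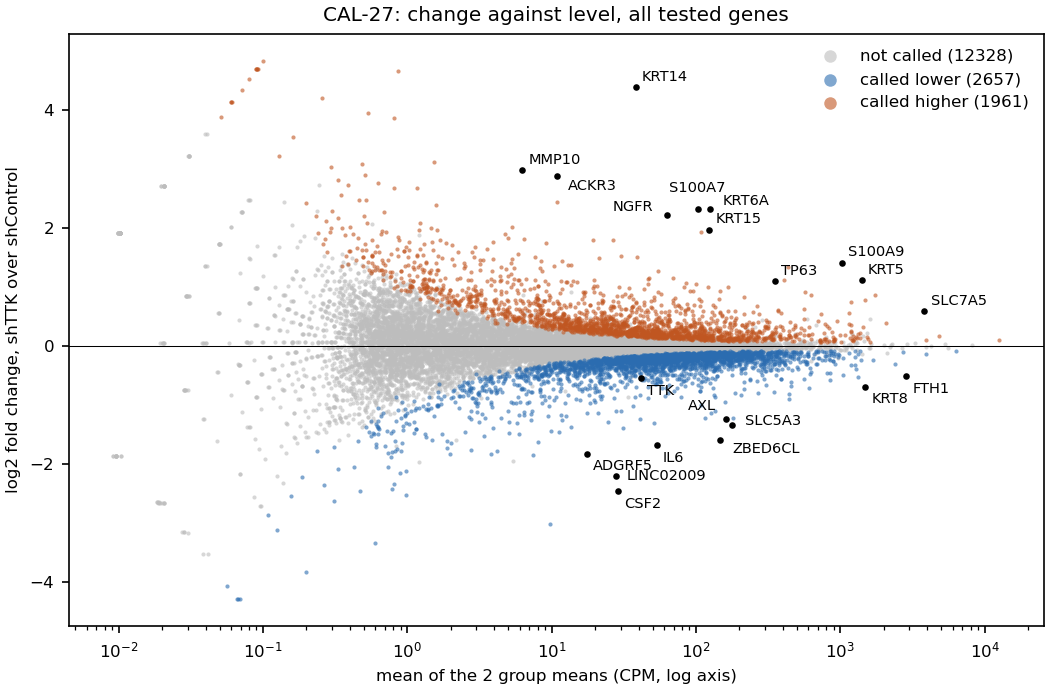
Log2 fold change of shTTK over shControl in CAL-27 (vertical axis) against the mean of the 2 group means in CPM (horizontal log axis), 1 point for each gene tested that had a count in CAL-27. Genes that rose (1961, orange) and fell (2657, blue) are called by edgeR, grey points are not called, and black points are the genes labelled by name. Among the labelled genes KRT14 lies highest and CSF2 lowest, and most coloured points at the right lie close to 0.

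Keratin genes changed in both directions. Of 23 keratin genes tested 11 rose and 5 fell, with a median log2 fold change of 1.00 over the 23 (over all genes tested the median was -0.01). The largest change among genes at 5 CPM or more was that of KRT14, the basal partner of KRT5, encoded on chromosome 17 from 41582279 to 41586921 on the minus strand. It was at 3.20, 4.33 and 2.79 CPM in the control libraries and at 69.8, 74.5 and 75.2 CPM in the shTTK libraries, so that every shTTK library lay far above every control library. The rule for the genes with the largest changes, here and below, required groups without overlap, so that trait was fixed by the choice. The log2 fold change was 4.40 ± 0.075 (SE, edgeR adjusted p = 5.02e-48).

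KRT5 was already abundant and rose from 859, 921 and 878 CPM to 1917, 1898 and 1955 CPM, with a log2 fold change of 1.12 ± 0.027 (SE, edgeR adjusted p = 5.02e-48). KRT15, another keratin of basal cells, went from 52.9, 48.3 and 48.9 CPM to 172, 211 and 209 CPM, a log2 fold change of 1.98 ± 0.066 (SE). Neither gene's groups overlapped, and both rises were far larger than the spread within a group. The keratins of stressed epithelium moved the same way. KRT6A was at 41.2, 43.3 and 40.7 CPM in control and at 211, 212 and 207 CPM in shTTK libraries, KRT17 at 210.5, 274 and 245 against 618, 622 and 615 CPM, and KRT16 at 12.01, 15.6 and 13.004 against 26.97, 28.7 and 26.9 CPM. Their log2 fold changes were 2.33, 1.35 and 1.02, and KRT6B rose by 1.00. All 4 were called by edgeR without overlap between the groups.

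The 5 keratins that fell included KRT8 and KRT18, the pair of simple epithelia. KRT8 fell from 1842, 1879.7 and 1806 CPM in the control libraries to 1155, 1119.5 and 1163 CPM in the shTTK libraries (log2 fold change -0.68 ± 0.028, SE, edgeR adjusted p = 3.17e-34). Its partner KRT18 fell from 671, 671 and 659 CPM to 457, 462 and 447 CPM, and KRT80, another type II keratin, fell from 554, 566 and 559 CPM to 358, 337 and 354 CPM. KRT7 (-0.63) and KRT86 (-0.59) also fell, the latter not without shControl replicate 3 or shTTK replicate 3. KRT19, which is made in simple epithelia as well, rose by 1.27 from a level of 0.827 ± 0.0962 CPM.

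Per length the order of the keratins changed. In the control libraries KRT8 was highest at 268 ± 5.37 RPKM (SD, n = 3, CPM per kilobase of exon), ahead of KRT18 at 207 ± 2.22 and KRT5 at 206 ± 7.43, which did not differ beyond their spread. In the shTTK libraries KRT5 was first at 448 ± 6.83 RPKM, followed by KRT17 at 198 ± 1.16 and KRT8 at 167 ± 3.38. KRT14 went from 1.51 ± 0.350 RPKM to 32.1 ± 1.30 RPKM, still well below KRT5. Together the keratins took 4360, 4556 and 4367 CPM in the control libraries and 5153, 5130 and 5221 CPM in the shTTK libraries, so their sum differed less than the single genes did. KRT6C, at 0.629, 2.19 and 0.619 CPM against 2.22, 2.13 and 2.52 CPM, overlapped between the groups, and its call was lost without shControl replicate 1 or 3 or shTTK replicate 3. KRT6A, KRT6B and KRT6C, and likewise KRT14, KRT16 and KRT17, have near-identical copies, and how reads that fit several places were counted is not given in the sources used here, so the split among them is uncertain.

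**Figure D2:**
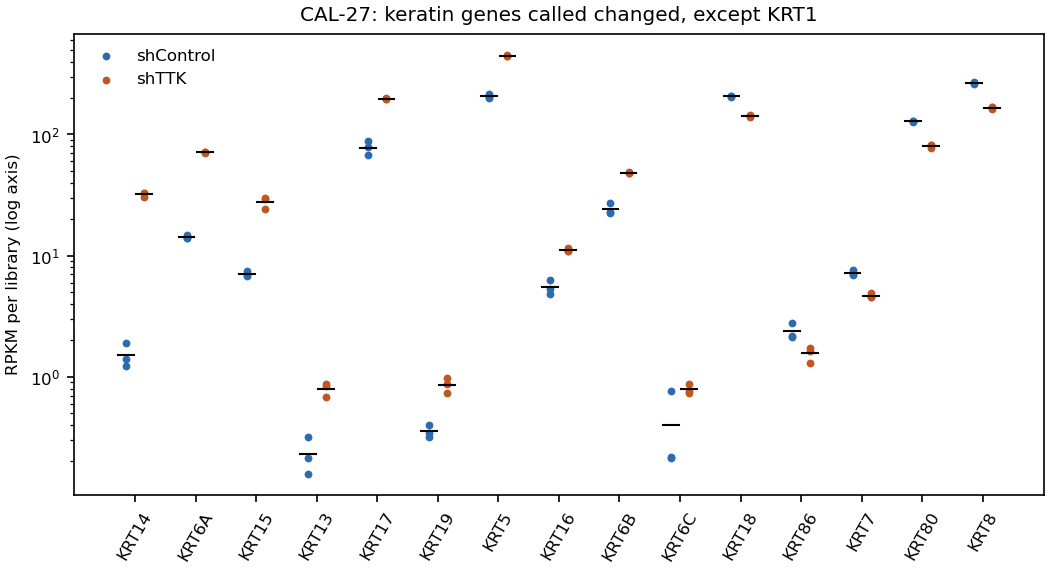
Keratin genes called changed in CAL-27, apart from KRT1, in RPKM per library on a log axis, with shControl in blue, shTTK in orange, 1 point for each library and a bar at the mean of 3. The 10 genes at the left rose and the 5 at the right fell, and the mean of KRT14 moves from 1.51 to 32.1 RPKM.

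Among the tested genes of the cornified envelope and the neighbouring S100 genes rises outnumbered falls. They lie together in the epidermal differentiation complex on chromosome 1, where 23 of 64 protein-coding genes between S100A10 and S100A1 were tested. Of the 23, 11 rose, 2 fell and 10 were not called. Among the last were FLG (-0.62), the filaggrin gene of the outer epidermis, HRNR (0.39) and TCHH (0.76). Of 17 S100 genes tested in all, 7 rose, 2 fell and 8 were not called. S100A7, also called psoriasin, an antimicrobial protein of inflamed epidermis, was at 34.8, 34.3 and 34.2 CPM in control and at 169, 179.9 and 171 CPM in shTTK libraries (log2 fold change 2.33 ± 0.054, SE, edgeR adjusted p = 2e-48). S100A8 and S100A9, the subunits of calprotectin, rose from 44.8 ± 0.986 and 561 ± 31.01 CPM to 172 ± 1.24 and 1499 ± 62.8 CPM (SD, n = 3). S100A7A rose by 2.44 and S100A2, a target of p63, by 0.86 on the log2 scale, whereas S100A4 fell by 0.43 and S100A16 by 0.17. In S100A7, S100A8 and S100A9 every shTTK library lay above every control library by more than the spread within either group.

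The envelope precursors were rarer. Of 29 small proline-rich and late envelope genes only 2, SPRR1A and SPRR1B, passed the filter on low counts and were tested. SPRR1A could not have passed it through the control group. SPRR1A had 3 counts over the control libraries and 82 over the shTTK libraries, a ratio of 28.7 with a 95% exact counting interval from 9.48 to 142. SPRR1B went from 0.515, 0.110 and 0.310 CPM to 2.71, 2.42 and 3.14 CPM. PI3, the elastase inhibitor elafin, which is crosslinked into the envelope, rose from 1.20, 3.13 and 2.17 CPM to 8.99, 7.22 and 7.14 CPM (log2 fold change 1.84 ± 0.22, SE), and the serpin SERPINB13 rose from 3.995 ± 0.616 to 11.3 ± 1.07 CPM (SD, n = 3). All 4 genes had shTTK libraries above every control library, yet the SPRR1 genes stayed among the rarer transcripts. KRT1, the keratin of the suprabasal epidermis, had 1 count over the control and 12 over the shTTK libraries, and its call was lost without any one of shControl replicate 2 or 3 and shTTK replicate 1 or 2.

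Junction and basement membrane genes moved in both directions by member. Of 12 desmosome genes tested 5 rose and 1 fell. PKP1, a plakophilin of stratified epithelium, went from 19.2, 21.2 and 20.002 CPM to 57.2, 57.3 and 57.96 CPM (log2 fold change 1.51 ± 0.084, SE, edgeR adjusted p = 4.11e-25). The desmosomal cadherins DSC3 and DSG3 rose by 1.06 and 0.79, DSP by 0.41 and JUP by 0.20, while PKP3 fell by 0.16 and DSC2 was not called (0.05). COL17A1, the transmembrane collagen of hemidesmosomes, rose from 398, 398 and 393 CPM to 752, 740.4 and 755 CPM (log2 fold change 0.92 ± 0.029, SE). Its partners in that structure moved less: ITGA6 rose by 0.46 and ITGB4 by 0.31 on the log2 scale.

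Of 11 laminin genes 5 rose and 1 fell, or 2 without shControl replicate 1. LAMA3, which encodes a laminin chain of the epidermal basement membrane, rose by 0.60, and LAMB3, another such chain, missed the threshold at 0.07 (edgeR adjusted p = 0.0578) but was called in 13 of 21 other settings. Of 26 collagens 10 rose, among them COL7A1 of the anchoring fibrils (0.48), COL4A5 (0.50) and COL4A6 (0.94). The 5 collagens that fell were COL4A1 (-0.23), COL4A2 (-0.38), COL5A1 (-0.36), COL6A1 (-0.41) and COL6A2 (-0.54). The basement membrane collagen pairs COL4A5 with COL4A6 and COL4A1 with COL4A2, each a head-to-head gene pair, thus changed in opposite directions. Of 24 integrins 4 rose and 5 fell, the latter including ITGB2 (-1.09), ITGB5 (-0.66) and ITGB6 (-0.49), so that the share of integrins that rose (4 of 24) lay near the 11.6% of all genes.

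In 2 protease families, the kallikreins and the matrix metalloproteinases, rises outnumbered falls. Of 9 kallikreins tested 6 rose and none fell, and they lie in a row on chromosome 19. KLK5, which starts a protease cascade in the outer epidermis, went from 1.94, 2.19 and 2.60 CPM to 5.54, 5.09 and 5.72 CPM, and KLK10 from 2.92, 2.69 and 2.79 to 8.07, 8.10 and 7.32 CPM, with log2 fold changes of 1.28 ± 0.2 and 1.48 ± 0.14 (SE). KLK8 rose by 1.53 and KLK7 by 2.02, both from under 1 CPM, and KLK13 had 0 counts in the control and 5 in the shTTK libraries. With the CAL-27 libraries fitted alone, 3 kallikreins rose. That fit had its own filter on low counts and tested 15620 genes, so rare kallikreins may have had no value in it rather than a lost call. KLK13 was lost without any one of the control libraries or shTTK replicate 3. Of 14 matrix metalloproteinases 7 rose and 1, MMP15, fell by 0.22, while without shControl replicate 3 2 of them fell. MMP13, a collagenase, rose from 5.95, 4.99 and 7.68 CPM to 12.4, 12.1 and 13.9 CPM, MMP1, another collagenase, by 0.73 and MMP28, a metalloproteinase of keratinocytes, by 1.36 on the log2 scale.

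MMP10, a stromelysin made at the edge of wounds, showed the largest rise after KRT14 among genes that reached 5 CPM. It was at 1.26, 1.54 and 1.36 CPM in the control libraries and at 11.3, 12.1 and 9.78 CPM in the shTTK libraries, and the groups lay far apart. The log2 fold change was 2.99 ± 0.25 (SE, edgeR adjusted p = 1.43e-11). Its promoter is shown because it holds 2 sites searched for over all promoters, an AP-1 site (TGANTCA, the motif of FOS and JUN dimers) and a TATA box (TATAAA), both in capitals. The window of 300 bases runs from 250 before to 50 after the RefSeq start, on the minus strand of chromosome 11, 102780579 to 102780878 of GRCh38.p14, and the sites begin 67 and 31 bases before the start.
MMP10 promoter: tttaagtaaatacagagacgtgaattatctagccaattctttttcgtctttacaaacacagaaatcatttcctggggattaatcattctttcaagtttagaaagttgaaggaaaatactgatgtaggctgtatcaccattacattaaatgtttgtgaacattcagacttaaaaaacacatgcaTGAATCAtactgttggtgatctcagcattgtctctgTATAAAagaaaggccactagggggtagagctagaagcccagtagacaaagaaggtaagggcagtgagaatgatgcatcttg

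Among receptors and secreted factors, the genes with the largest rises belonged to several pathways. ACKR3, an atypical chemokine receptor that takes up CXCL12, was at 2.57, 2.63 and 2.60 CPM in control and at 19.95, 20.3 and 17.8 CPM in shTTK libraries (log2 fold change 2.89 ± 0.15, SE, edgeR adjusted p = 3.66e-28). NGFR, the low-affinity neurotrophin receptor and a marker of basal oral keratinocytes, went from 19.8, 22.6 and 24.3 CPM to 96.7, 113 and 100.3 CPM (log2 fold change 2.22 ± 0.069, SE, edgeR adjusted p = 2.73e-38). IL20RB, a subunit of the receptors for the interleukin 20 family, went from 8.64, 8.83 and 8.24 CPM to 27.95, 31.6 and 29.8 CPM, and its partner IL20RA rose by 1.38 from 1.16 ± 0.455 CPM. In these genes every shTTK library exceeded every control library by a wide margin.

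HAS3, a hyaluronan synthase, rose from 10.8, 12.4 and 10.2 CPM to 30.9, 28.8 and 34.8 CPM, and IGFBP3, a secreted binding protein of insulin-like growth factors, from 1232 ± 60.7 to 2246 ± 62.6 CPM (SD, n = 3). The log2 fold changes were 1.49 ± 0.08 and 0.87 ± 0.035 (SE). NDRG1, a gene known for induction by hypoxia and differentiation, rose from 265, 252 and 253 CPM to 533, 633 and 518 CPM. The aldo-keto reductases AKR1C1, AKR1C2 and AKR1C3, of 1 cluster on chromosome 10, rose by 1.06, 1.66 and 0.92. They are close paralogs, so the split of reads among them is uncertain, and AKR1B1, which lies elsewhere, fell by 0.78 from 438 ± 12.5 CPM.

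**Figure D3:**
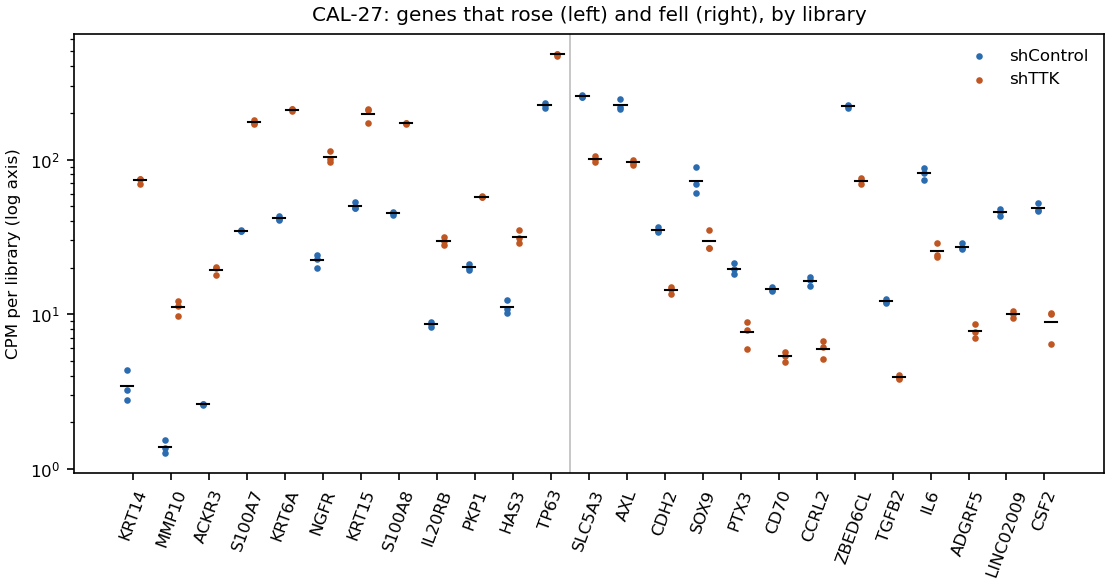
CPM of each CAL-27 library on a log axis for 12 genes that rose (left of the line) and 13 that fell (right), with shControl in blue, shTTK in orange and a bar at the mean of 3. The groups are apart in every gene drawn, which the rule for the genes with the largest changes required. KRT14 moves the farthest among the rises and CSF2 among the falls.

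Among transcription factors of the keratinocyte lineage rises outnumbered falls. Of 28 such factors tested 12 rose and 3 fell, and of 14 Kruppel-like factors 8 rose and 2 fell (7 to 8 and 0 to 2 in the other settings, with none falling without shTTK replicate 2 and 1 without shControl replicate 2, shTTK replicate 1 or any one of SCC-15 shControl replicate 2 or 3 and shTTK replicate 1 or 2). TP63, which encodes p63, went from 215, 226 and 231 CPM to 471, 484 and 482 CPM (log2 fold change 1.10 ± 0.032, SE, edgeR adjusted p = 2.59e-43). Its relative TP73 rose from 37.7 ± 1.68 to 70.9 ± 3.84 CPM and KLF4, a factor of the barrier layers, from 110.3 ± 9.94 to 222 ± 12.9 CPM (SD, n = 3). KLF13 rose by 1.15, KLF7 by 0.98, KLF5 by 0.77, the hair growth corepressor HR by 1.54 and the HES family repressor HES2 by 1.44 on the log2 scale. ZNF750, a p63 target that drives late differentiation, rose from 1.60, 5.26 and 3.65 to 8.005, 6.68 and 7.26 CPM, and this call was lost in 8 of 21 other settings, among them without shControl replicate 3 or any one shTTK library.

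The factors that fell included SOX9, a factor of progenitor and ductal cells, at 60.5, 89.05 and 69.05 CPM in control and 35.2, 26.9 and 26.9 CPM in shTTK libraries (log2 fold change -1.30 ± 0.15, SE, edgeR adjusted p = 0.000146). ETS1, ATF5, FOXD1 and HOXB7 fell by 0.76, 0.71, 0.72 and 0.84. OVOL1 (-0.61), GATA3 (-0.74) and SOX15 (-0.14) are counted among the keratinocyte factors and fell as well. The call of GATA3 was lost without shControl replicate 2 or 3 or shTTK replicate 2 or 3, that of SOX15 without shControl replicate 1 or 2 or shTTK replicate 2, and without shControl replicate 2 or shTTK replicate 2 1 keratinocyte factor fell. Counts of other families of DNA-binding proteins stand beside the 11.6% of all genes tested that rose and the 15.7% that fell. Of 32 forkhead factors 6 rose and 7 fell (4 without shControl replicate 2 or shTTK replicate 3), of 32 nuclear receptors 7 rose and 5 fell, and of 32 C/EBP, ATF and MAF factors 4 rose and 7 fell, with 7 rises in CAL-27 alone. The nuclear receptors that fell (15.6%) and the C/EBP, ATF and MAF factors that rose (12.5%) lay near the shares of all genes. Of 390 ZNF proteins 22 rose and 25 fell (16 fell without shControl replicate 2 or shTTK replicate 1), and of 31 HOX factors none rose and 2 fell, both with shares below those of all genes. Without any one of shControl replicate 2, shTTK replicate 1, SCC-15 shControl replicate 2 or 3 and SCC-15 shTTK replicate 1 or 2, 1 HOX factor rose, and without shControl replicate 1 1 fell.

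The interferon-induced genes that were called rose, most of them by less than 2-fold. Of 17 IFI and IFIT genes tested 11 rose and none fell, and of 14 OAS, GBP, MX and SAMD9 genes 9 rose and none fell, with medians of 0.26 and 0.36 on the log2 scale. Under the other settings 10 to 11 and 9 to 11 rose. Rises of at least 2-fold were found in 3 of the 17 and 1 of the 14, against 1.63% of all genes tested. IFI27 went from 11.3, 12.5 and 11.6 CPM to 40.5, 42.6 and 40.6 CPM (log2 fold change 1.80 ± 0.09, SE, edgeR adjusted p = 1.02e-28). IFI6, another interferon-induced gene, rose from 36.8 ± 0.740 to 65.5 ± 2.48 CPM and OAS1, a sensor of double-stranded RNA, from 36.2 ± 2.05 to 55.2 ± 3.10 CPM (SD, n = 3). MX1, MX2, GBP1 and SAMD9 rose by 0.34, 0.58, 0.39 and 0.61. Of 16 interferon regulatory factors and STATs, which carry the signal, 7 rose and 3 fell. Among them STAT2, IRF7 and IRF9 rose by 0.24, 0.46 and 0.91, whereas IFIT3 was not called (-0.10).

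Cytokine genes were among the deepest falls, although most members of their families were not called. Apart from a transcript known by a clone name only, the deepest fall among genes that reached 5 CPM was that of CSF2, which encodes the granulocyte-macrophage growth factor. It was at 46.7, 51.9 and 47.2 CPM in the control libraries and at 10.2, 6.39 and 10.03 CPM in the shTTK libraries, with a log2 fold change of -2.46 ± 0.1 (SE, edgeR adjusted p = 6.06e-32). IL6 went from 73.8, 88.7 and 81.9 CPM to 28.8, 24.1 and 23.5 CPM (log2 fold change -1.68 ± 0.075, SE, edgeR adjusted p = 1.58e-27). The lowest control library lay well above the highest shTTK library in both genes.

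The promoters of both cytokine genes are shown because they differ in the NF-kB motif searched. In the IL6 promoter, from 22726950 to 22727249 on the plus strand of chromosome 7, the site in capitals begins 73 bases before the RefSeq start. The CSF2 promoter, from 132073539 to 132073838 on the plus strand of chromosome 5, holds none of the NF-kB, AP-1 or TATA letters in this window, and so has no capitals. Other forms of the NF-kB site were not searched, so the missing letters do not show that the CSF2 promoter lacks such a site. Both are RefSeq sequences of GRCh38.p14 over the same 300 bases as for MMP10.
IL6 promoter: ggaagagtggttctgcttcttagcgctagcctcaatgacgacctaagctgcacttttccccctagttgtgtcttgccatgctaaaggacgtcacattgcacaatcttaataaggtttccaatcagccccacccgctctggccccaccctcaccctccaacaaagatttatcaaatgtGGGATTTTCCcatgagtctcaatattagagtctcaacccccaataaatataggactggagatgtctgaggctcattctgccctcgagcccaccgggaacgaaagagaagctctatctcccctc
CSF2 promoter: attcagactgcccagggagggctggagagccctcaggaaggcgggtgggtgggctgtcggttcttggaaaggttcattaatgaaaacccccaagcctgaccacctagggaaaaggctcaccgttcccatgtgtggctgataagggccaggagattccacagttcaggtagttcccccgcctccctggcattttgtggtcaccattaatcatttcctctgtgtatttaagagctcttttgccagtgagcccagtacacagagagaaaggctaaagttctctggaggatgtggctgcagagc

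Of 45 interleukin and interleukin receptor genes 6 rose, a share near that of all genes, and 13 fell, with a median of -0.16. IL11 fell from 3.83, 3.45 and 3.72 CPM to 1.35, 1.60 and 1.05 CPM, IL7R, the receptor chain for interleukin 7, from 49.3, 50.8 and 46.6 to 24.9, 22.3 and 25.5 CPM, and IL23A by 1.11 on the log2 scale. IL1A and IL1B, abundant alarm cytokines of keratinocytes, fell by 0.38 and 0.20 from 697 ± 47.4 and 768 ± 63.9 CPM (SD, n = 3). Their natural inhibitor IL1RN rose from 0.743, 0.768 and 0.743 CPM to 3.39, 2.01 and 2.52 CPM, and IL18 rose by 0.82. Of 20 chemokines and their receptors 2 rose, 4 fell and 14 were not called, and 2 fell in CAL-27 alone. CXCL1 and CCL2 fell by 0.40 and 0.23. CXCL8 (-0.26) and TNF (-0.32) fell too, but with the CAL-27 libraries fitted alone their edgeR adjusted p was 0.106 and 0.0856. In the tumour necrosis factor family CD70, the ligand of CD27, fell from 14.2, 15.02 and 14.2 CPM to 5.66, 5.38 and 4.92 CPM while the death ligand TNFSF10 rose by 0.85. PTX3, a secreted pattern receptor induced by inflammatory signals, fell from 19.6, 21.4 and 18.1 CPM to 7.94, 5.97 and 8.92 CPM.

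AXL, CDH2 and TGFB2, chosen here after their values were seen, were among the genes that fell by more than 2-fold, whereas of the 8 fibroblast markers 2 rose (COL1A1 by 0.36 and the rare LUM by 2.01) and none fell. The call of LUM was lost without shControl replicate 1 or 3 or shTTK replicate 2. The receptor kinase AXL fell from 245, 219 and 211 CPM to 99.8, 95.5 and 91.9 CPM (log2 fold change -1.23 ± 0.045, SE, edgeR adjusted p = 2.1e-34). N-cadherin, CDH2, fell from 34.2, 34.7 and 36.5 CPM to 14.6, 13.5 and 14.95 CPM and TGFB2 from 11.9, 11.8 and 12.4 CPM to 3.88, 3.79 and 4.06 CPM. In none of these genes did the groups overlap, and each fell by more than a factor of 2. Of 41 TGF-beta, BMP and activin genes 5 rose (12.2%), a share near the 11.6% of all genes, and 10 fell (24.4%). The latter included GDF15 (-0.72), but 5 fell without shControl replicate 3 and 4 without shTTK replicate 3. The semaphorin receptor NRP1 fell by 1.17 and its relative NRP2 rose by 0.66, and of the 28 semaphorins, plexins and neuropilins 13 rose and 3 fell. E-cadherin, CDH1, changed by -0.11, a call that was lost without shControl replicate 2 or shTTK replicate 3, and vimentin, VIM, was nearly absent, with 20 counts over the control libraries and 1 over the shTTK libraries. DUSP4, a phosphatase that limits ERK kinases, fell from 240.4, 272 and 246 CPM to 116, 101 and 109.6 CPM, and SPRY4, another feedback inhibitor of that pathway, from 11.2, 8.88 and 10.5 to 5.54, 3.43 and 3.81 CPM. Of 19 dual specificity phosphatases 2 rose (10.5%, near the share of all genes), among them DUSP9 by 1.09, and 5 fell (26.3%). In the other settings 2 to 4 rose and 4 to 7 fell.

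Some of the deepest falls were shared by neighbouring genes. LINC02009, a long noncoding RNA gene, was at 45.8, 43.4 and 48.1 CPM in control and 9.48, 9.94 and 10.5 CPM in shTTK libraries (log2 fold change -2.20 ± 0.094, SE, edgeR adjusted p = 6.96e-33). It lies 3526 bases beyond the end of CCRL2, an atypical receptor for chemerin on chromosome 3, which fell from 15.3, 17.3 and 16.6 CPM to 6.16, 5.15 and 6.64 CPM. ZBED6CL fell from 224, 223 and 215 CPM to 74.1, 69.7 and 75.6 CPM and lies within the span of LRRC61 on the same strand of chromosome 7, which fell by 1.21 from 162 ± 3.97 CPM. SLC5A3, the sodium-coupled inositol transporter, fell from 261, 255 and 254 CPM to 96.3, 106 and 101 CPM (log2 fold change -1.35 ± 0.041, SE, edgeR adjusted p = 3.32e-42). It lies within the span of MRPS6 on chromosome 21 and shares 273 bases of exon with it on the same strand, and MRPS6 fell by 0.58. Reads of genes nested in this way cannot always be assigned to 1 of them. ADGRF5, an adhesion receptor, fell from 26.8, 29.01 and 26.3 CPM to 7.64, 6.98 and 8.61 CPM, and TRAV8-1, the name of a T cell receptor segment on chromosome 14, from 12.9, 10.97 and 11.3 to 3.51, 2.60 and 3.63 CPM.

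Counted in transcripts rather than folds, the change was spread over many abundant genes. The CPM that moved between genes, called or not, came to 5.602% of all counts. The genes that rose gained 40041 CPM together and the sum of the genes that fell dropped by 50159 CPM. Of the CPM gained by the called genes that rose 50% lay in 88 genes, and of the CPM lost by those that fell 50% lay in 267. The largest gains were those of SLC7A5, the large neutral amino acid transporter (3063, 3072 and 3011 CPM against 4685, 4491 and 4629.6 CPM), KRT5, IGFBP3 and S100A9, and of the mitochondrial transcript MT-CO2 (0.18), whose small fold change sits on a very high level. FOSB, an early response factor, rose by 0.79. ANXA1, an annexin of stratified epithelium, rose from 888 ± 35.7 to 1491 ± 27.03 CPM (SD, n = 3), and the lysosomal protease CTSB by 0.39 on the log2 scale.

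The largest losses in CPM were those of FTH1, the heavy chain of ferritin, which went from 3271, 3472 and 3325 CPM to 2310.2, 2367 and 2411 CPM (log2 fold change -0.51 ± 0.031, SE), and KRT8. The light chain FTL fell by 0.57. KDM1A, the histone demethylase LSD1, fell from 762, 751 and 741 CPM to 448, 466 and 458 CPM (log2 fold change -0.72 ± 0.03, SE, edgeR adjusted p = 8.42e-34). DAP, a death-associated protein, fell from 562, 591 and 576 CPM to 318, 298 and 312 CPM, and the chromatin protein HMGA1, the protease PLAU and the mitochondrial dismutase SOD2 fell by 0.39, 0.49 and 0.32. Reads of FTH1 overlap those of BEST1 on the opposite strand over 62.4% of its exons, but BEST1 was at 2.51 ± 0.590 CPM in the control libraries.

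Families of housekeeping proteins held more falls than rises, by small steps. Of 42 proteasome subunits none rose and 23 fell, with a median of -0.12, among them PSMB2 (-0.30), PSMC4 (-0.28) and PSMB5 (-0.23). With total counts as the scale 2 rose and 20 fell, as many as 2 rose when single libraries were left out (shTTK replicate 1, SCC-15 shControl replicate 2 or 3 or SCC-15 shTTK replicate 1 or 2), and over all other settings 14 to 28 fell, with 14 without shControl replicate 2 or without shTTK replicate 1. Of 54 spliceosome, SR and hnRNP proteins 3 rose and 21 fell (11 to 25 in the other settings), of 75 heat shock proteins, DNAJ proteins and chaperonin subunits 8 rose, a share near that of all genes, and 26 fell (15 to 27, with 15 to 17 without shControl replicate 2, shTTK replicate 1 or shTTK replicate 3), and of 78 mitochondrial ribosomal proteins 4 rose and 18 fell (13 to 20, with 1 rise without shControl replicate 1 and 2 without shControl replicate 3 or shTTK replicate 2). PSMB2 had the largest change of any proteasome subunit called. Beside these shares, 37.6% of the highest of the 10 level groups fell, 30.6% of the next and 26.3% of the one below that. The share of mitochondrial ribosomal proteins that fell (23.1%) lay below each of these. Whether the families differ from other genes of the same level was not tested.

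Among the aminoacyl-tRNA synthetases, which charge transfer RNAs, rises outnumbered falls, with 13 of 35 higher and 3 lower (11 to 15 higher and 1 to 3 lower in the other settings, with 1 lower without shControl replicate 2 or 3, shTTK replicate 1 or 3, SCC-15 shControl replicate 2 or 3 or SCC-15 shTTK replicate 1 or 2). GARS and AARS rose by 0.41 and 0.40, SARS by 0.32 and CARS by 0.31, whereas VARS fell by 0.26. Among 256 solute carriers 31 rose (12.1%), a share near the 11.6% of all genes, and 61 fell (23.8%). Those that rose included amino acid carriers beside SLC7A5, namely SLC7A11, the cystine transporter (0.65), and SLC1A4 (0.73), while the glutamate carriers SLC1A2 (-0.65) and SLC1A3 (-0.62) fell. Of 21 enzymes of fatty acid synthesis and activation 1 rose, or none without any one CAL-27 library other than shControl replicate 2, and 11 fell, with FASN at -0.52, SCD at -0.46, ACLY at -0.40 and FADS2 at -0.48. Of 5 metallothioneins none rose and 3 fell, including MT1E (-0.45), and 1 rose without shTTK replicate 3.

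**Figure D4:**
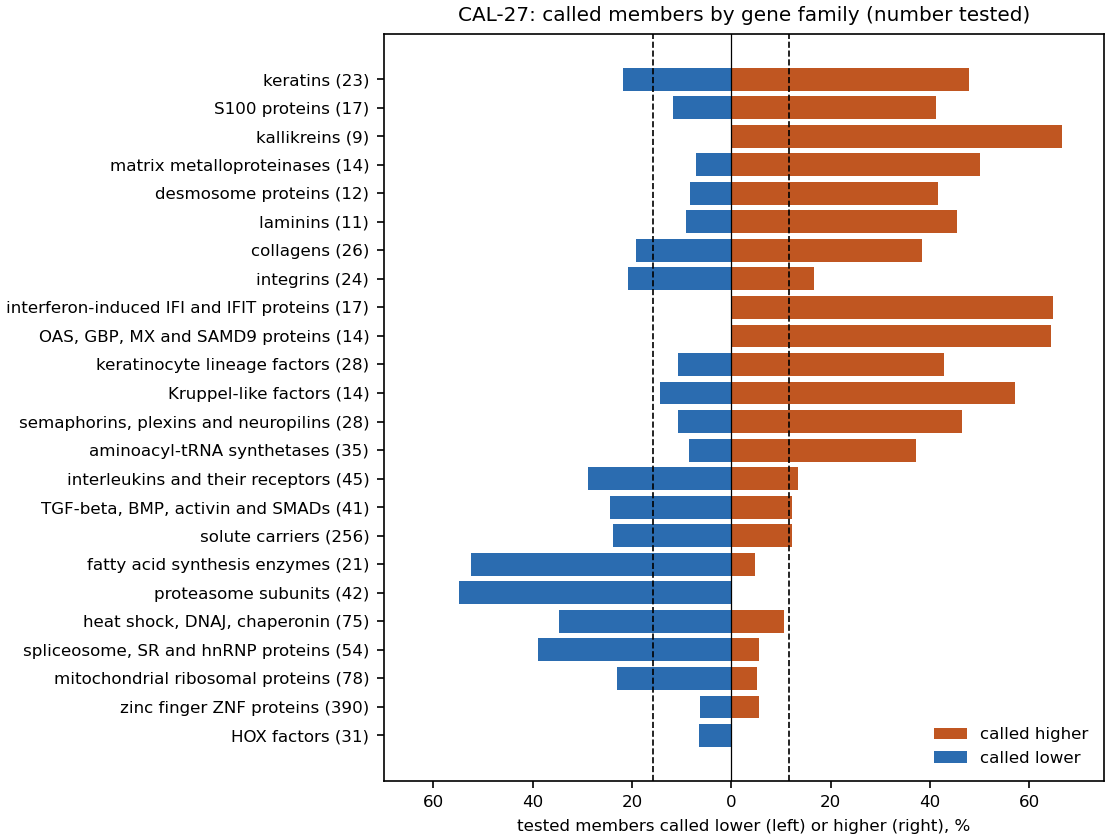
Share of the tested members of 24 gene families that were called lower (blue, left) or higher (orange, right) in CAL-27 shTTK, in percent, with the number tested in brackets. The dashed lines mark the share of all genes tested that fell (15.7%) and rose (11.6%), and the bars of the keratins, kallikreins and interferon-induced families pass the right line while those of the proteasome and fatty acid enzymes pass the left.

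The promoters of the changed genes were searched for short motifs on both strands. A RefSeq promoter of 300 bases was found for 11162 of the 16946 genes tested. AP-1 letters (TGANTCA) stood in 5.01% of these, in 5.75% for all genes that rose and 5.20% for all that fell. For changes of at least 2-fold the shares were 8.89% (12 of 135) for rises and 14.5% (11 of 76) for falls. TATA boxes stood in 5.96% of promoters of all tested genes, in 7.69% and 6.07% for all rises and falls, and in 14.1% and 10.5% for those of at least 2-fold. The letters TTNGCGC of E2F stood in 12.5% of promoters of tested genes, in 8.70% and 14.2% for all rises and falls, and in 8.89% and 5.26% (4 of 76) for those of at least 2-fold, so that the falls lay above the share of all tested genes in the whole set and below it in the 2-fold set. The NF-kB letters stood in 0.591% of promoters of tested genes and in 0.503% and 0.486% for all rises and falls, and of the 2-fold sets 0 of 135 and 1 of 76 held them. The genes that fell by 2-fold and hold AP-1 letters included IL11, IL23A, LINC02009 and EBI3, and those that rose included MMP10, SPRR1A, SPRR1B, SERPINB13, IL1RN and CLCA2. Over all 27305 promoters, tested or not, the shares were 7.76% for AP-1, 11.95% for TATA boxes and 7.93% for E2F. The TATA share of the 2-fold rises lay above that of all promoters and that of the 2-fold falls below it. Of the genes changed by 2-fold, 77 of 277 rises and 35 of 148 falls were under 1 CPM in both groups. Whether the 2-fold sets differ from other genes of the same level was not tested. A match describes the letters of the window and not the binding of a factor.

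Long noncoding RNA genes tended to be low. Beside LINC02009, those at 2 CPM or more in the higher group included rises of LINC00880 (1.41), LINC00479 (1.40), MYOSLID (1.33) and LINC02029 (1.28), and falls of FAM222A-AS1 (-1.64), LINC02015 (-1.49) and GAS6-AS1 (-1.23). LINC00880 and LINC02029 overlap on opposite strands over 53.4% of the exons of the former, and the strand setting of the counting is not given in the sources used here, so their rises cannot be told apart. The 28 called genes with 3 counts or fewer in a group divide into 19 that rose and 9 that fell. PTPRZ1, a receptor phosphatase, had 3 counts over the control and 50 over the shTTK libraries, a ratio of 17.5 with a 95% exact counting interval from 5.65 to 87.7, and the ratio of VIM was 19.0 in the other direction, with an interval from 3.05 to 790. These intervals cover counting error only. EDAR, at 0 counts in the control libraries and 9 in the shTTK libraries, was at least 3.15-fold higher when the control group is set to a floor of 3 counts, and its call was lost without any one of 10 of the 12 libraries.

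Large changes of CAL-27 often differed from those of SCC-15. The difference of the 2 lines' log2 fold changes was itself tested, and it was called for 4304 of 16946 genes (25.4%) and for 2512 of the 4618 genes called in CAL-27 (54.4%). The same CAL-27 libraries enter both calls, which raises that share by construction. Of the 425 genes that changed by at least 2-fold the difference was called for 228 (53.6%). Of the 277 genes that rose by at least 2-fold in CAL-27, 35 rose and 44 fell in SCC-15, and of the 148 that fell by at least 2-fold 17 fell and 11 rose there. The other 198 and 120 were not called in SCC-15, where 67 of the 277 and 68 of the 148 were too rare to reach 0.5 CPM. KRT14 rose by 4.40 in CAL-27 and fell by 1.05 in SCC-15, a difference of -5.44 (SCC-15 minus CAL-27, edgeR adjusted p = 1.21e-50). KRT8 went from a fall of 0.68 to a rise of 0.48, ACKR3 from 2.89 to -1.35, and CSF2, which was under 1 CPM in both SCC-15 groups, from -2.46 to 0.05. TTK itself fell by 0.54 in CAL-27 and by 1.21 in SCC-15, a difference of -0.67 (edgeR adjusted p = 2.37e-08), so that the lines differ in the size of the knockdown as well.

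Among the genes called in both lines with the same direction, 487 rose and 679 fell, and 815 genes were called in opposite directions. The shared rises included KLK5 (1.28 in CAL-27 and 1.47 in SCC-15), MMP13 (1.05 and 0.97) and SPRR1B (3.13 and 1.73). The shared falls included LINC02009 (-2.20 and -1.17), PTX3 (-1.38 and -2.88), C15orf48 (-1.38 and -4.07) and TIMP2 (-1.11 and -1.34). PTX3 did not reach 1 CPM in either SCC-15 group, so its SCC-15 value is fitted and not a measured size. Its CAL-27 fall rests on the CPM given above. C15orf48 stayed under 1 CPM in both groups of at least 1 line, so its values are fitted and not measured sizes. For KLK5 and MMP13 the difference between the lines was not called (edgeR adjusted p = 0.69 and 0.676).

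**Figure D5:**
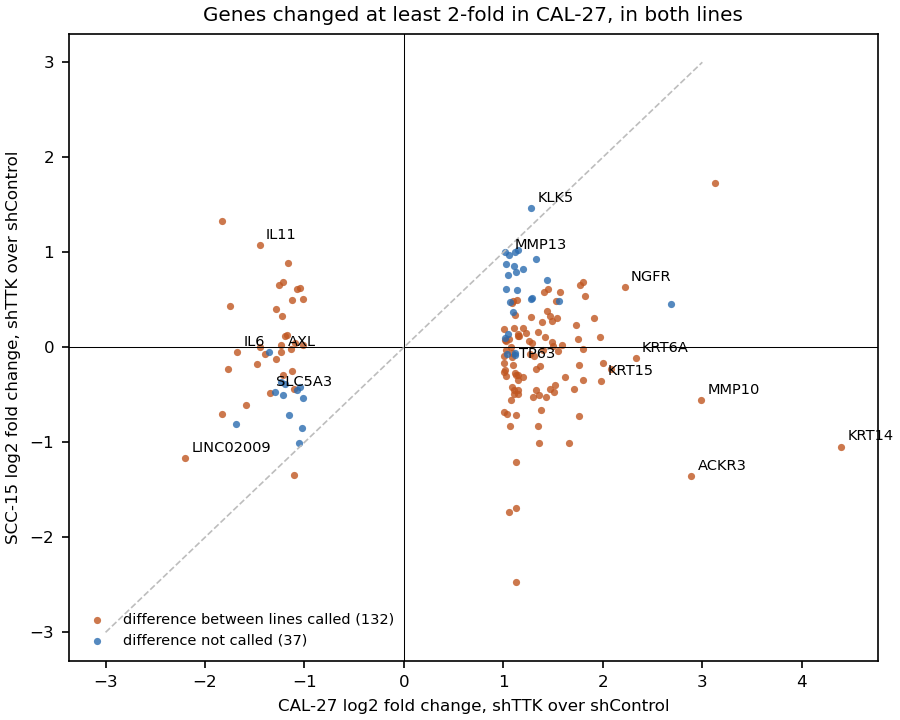
Log2 fold change in CAL-27 (horizontal) and SCC-15 (vertical) for 169 genes that changed by at least 2-fold in CAL-27 and reached 1 CPM in a group of each line, with the difference between the lines called in orange and not called in blue. Of 124 genes that rose 99 and of 45 that fell 33 are orange, and most points lie nearer to the horizontal axis than to the dashed line of equal change.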

How the data were processed

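The authors deposited 1 table of unnormalized counts by gene symbol. The submitters' processing notes name Trim Galore 0.6.6, featureCounts 2.0.1 and STAR 2.7.7a, and the build hg38. Not given in the sources used here: the annotation release, the strand setting, and how reads with several matches were counted. Of 58735 lines, 1568 repeat a symbol and 27 carry a date in place of one (0.183% of counts), and all were kept as separate features. The number of unmapped columns was 0. CAL-27 libraries held 16176655 to 18484112 counts.

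Genes were kept with filterByExpr, which left 16946. EdgeR 4.0.16 in R 4.3.3, with TMM scaling, fitted a robust quasi-likelihood model to the 12 libraries with 4 group means (8 residual degrees of freedom). The contrasts were the knockdown effect in each line and the difference of the 2 effects. Tests were two-sided, with Benjamini-Hochberg adjustment over all genes and a threshold of 0.05. The fit was tested on simulated counts first. DESeq2 1.42.0, limma-voom (limma 3.58.1), other scalings, other filters, CAL-27 alone, a replicate block and leaving out each library served as alternatives. CPM are TMM-scaled with the SD over 3 libraries, and RPKM divides them by the union of exons in GENCODE release 29 on GRCh38, from which positions come. Promoters are RefSeq, GRCh38.p14.

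Genes were named by rule: TTK, and per direction the 25 with the largest log2 fold change (at least 5 CPM, groups apart), the 15 with the largest CPM difference, 8 transcription factors, 6 long noncoding RNAs, up to 3 members per family by adjusted p, 10 shared by both lines, 10 with the largest line difference, and called genes at 3 counts or fewer. This gave 323 genes, of which those that carry each family are described. Family members outside the rule were chosen after their values were seen. The members, families and lists were chosen with earlier results of these data known. Family counts cover protein-coding genes whose symbols match a pattern, a restriction added after the patterns were seen to catch pseudogenes. A number of genes picked by the rule are not described.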

Additional observations from a re-analysis of the deposited data

Results flagged for a closer look

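The change under TTK knockdown differed between CAL-27 and SCC-15 for 137 of the 186 called genes described for CAL-27 (edgeR, difference of the log2 fold changes, adjusted p under 0.05). Over all genes tested the share was 25.4% and over all CAL-27 calls 54.4%. The described genes were chosen in part for large changes or large line differences, which raises their share by construction. In each value on the log2 scale the change of CAL-27 was subtracted from that of SCC-15, so that a negative value means a higher log2 fold change in CAL-27. TTK itself differed by -0.67, which is a deeper fall in SCC-15. KRT1, PTPRZ1 and VIM had 3 counts or fewer over a CAL-27 group, and CSF2, PI3, PKP1, PTPRZ1, S100A7 and S100A9 were under 1 CPM in both SCC-15 groups, so that their values below are fitted and not measured sizes. Among the keratins the difference was -5.87 for KRT1, -5.44 for KRT14, -2.44 for KRT6A, -2.33 for KRT15, -1.39 for KRT5, -1.34 for KRT19, -1.19 for KRT17, -0.96 for KRT16, -0.95 for KRT6B, 0.91 for KRT18, 0.91 for KRT7, 1.17 for KRT8 and 1.22 for KRT80. Among the S100 and envelope genes the difference was -4.98 for S100A7, -3.72 for S100A9, -2.27 for PI3, -1.99 for SERPINB13, -1.40 for SPRR1B, -0.79 for S100A2, 0.24 for S100A16 and 0.36 for S100A4. Among the junction and integrin genes the difference was -1.72 for PKP1, -0.98 for DSC3, -0.84 for DSG3, -0.27 for ITGA6, -0.26 for JUP, -0.22 for DSP, -0.12 for ITGB4, 0.31 for EPCAM, 0.34 for PKP3, 0.69 for ITGB5, 0.86 for CDH1 and 1.32 for CLDN4. Among the collagens and laminins the difference was -1.33 for COL4A6, -0.63 for COL17A1, -0.45 for COL4A5, -0.42 for LAMA3, -0.26 for COL7A1, 0.48 for COL6A1, 0.75 for COL6A2, 0.81 for COL5A1, 0.86 for COL4A1 and 0.90 for COL4A2.

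Among the proteases and their inhibitors the difference was -3.55 for MMP10, -2.37 for MMP28, -1.21 for KLK10, -1.04 for KLK8, -0.64 for CTSC, -0.23 for TIMP2, -0.18 for CTSB, 0.40 for PLAU and 0.42 for MMP15. Among the receptors, secreted factors and mesenchymal genes the difference was -4.34 for PTPRZ1, -4.24 for ACKR3, -1.58 for NGFR, -1.44 for HAS3, -1.18 for NRG1, -0.77 for EGFR, -0.64 for NRP2, -0.52 for IGFBP3, -0.34 for AREG, 0.57 for GDF15, 1.17 for CDH2, 1.18 for AXL, 2.05 for NRP1 and 4.07 for VIM. Among the cytokines and their receptors the difference was -2.14 for IL20RB, -2.04 for IL20RA, -1.81 for IL1RN, -1.17 for TNFSF10, -1.08 for IL1B, -0.53 for IL18, 1.04 for IL7R, 1.44 for CD70, 1.63 for IL6, 2.50 for CSF2 and 2.53 for IL11. Among the transcription factors the difference was -2.79 for ZNF750, -1.28 for TP63, -1.28 for KLF7, -1.23 for HR, -1.10 for KLF4, -1.05 for HES2, -1.01 for KLF13, -0.75 for TP73, -0.73 for KLF5, -0.62 for FOSB, 0.41 for ETS1, 0.41 for SOX15, 0.62 for ATF5 and 0.86 for FOXD1. Among the interferon-induced genes and their factors the difference was -1.17 for IRF9, -1.11 for IFI27, -1.01 for IFI6, -0.78 for MX1, -0.76 for OAS1, -0.43 for SAMD9 and -0.29 for STAT2. Among the genes of metabolism and transport the difference was -2.67 for AKR1C2, -1.89 for AKR1C1, -1.46 for AKR1C3, -0.99 for SLC7A11, -0.72 for SLC7A5, -0.59 for MT-CO2, -0.46 for SLC1A4, 0.26 for FTH1, 0.26 for SCD, 0.35 for ACLY, 0.36 for FASN, 0.41 for MT1E, 0.53 for SLC1A3, 0.58 for FTL, 0.60 for AKR1B1 and 0.87 for SLC5A3. Among the other genes named the difference was -2.66 for LUM, -1.77 for MYOSLID, -1.48 for CLCA2, -1.43 for LINC00479, -1.42 for NDRG1, -0.82 for ANXA1, -0.34 for COL1A1, -0.33 for GARS, -0.25 for AARS, -0.15 for PSMB2, 0.26 for PSMC4, 0.31 for VARS, 0.48 for MRPS6, 0.56 for HMGA1, 0.74 for DAP, 0.91 for KDM1A, 0.92 for LRRC61, 0.99 for ZBED6CL, 1.03 for LINC02009, 1.11 for LCP1, 1.90 for DUSP4 and 1.91 for SPRY4. No explanation of these differences was tested. No single library was tested as an outlier for these genes, since groups of 3 are too small for that test.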

How the results depend on the processing

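In 21 other settings, no result that answers a comparison changed direction, lost its call or moved by more than 1.5 times, and 332 of 384 called genes kept their call in every setting that gave a value, with none reversed. Genes that rose numbered 1575 to 2275 and genes that fell 1988 to 2756 when 1 of the 12 libraries was left out in turn, and 1704 to 2217 and 2040 to 2833 in the other 9 settings. At 2-fold, 230 to 306 rose and 110 to 159 fell over all of them, 2045 to 2521 calls differed between the lines, and the fall of TTK lay between -0.59 and -0.49 when single libraries were left out and between -0.55 and -0.52 otherwise (largest adjusted p of the edgeR, DESeq2 and limma fits 1.10e-06). The balance of directions depended on the setting: rises made up 42.5% of calls, 39.97% to 49.5% over the settings, with 2217 rises and 2330 falls in CAL-27 alone and 1997 and 2040 without the count filter, although the median of all genes shifted by at most 0.016 on the log2 scale. A setting chosen after the data were seen, without both SCC-15 libraries numbered 1, which stood apart from their groups, gave 2004 rises and 2833 falls. Depth limited the rare genes: in the lowest of the 10 level groups no change under 2-fold was called.

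The replicate numbers did not pair the CAL-27 samples: same-numbered libraries had correlations of deviations from their group means of 0.017, 0.0086 and 0.00018 over 12052 genes. With the replicate block 1947 genes rose, 2615 fell, 275 and 143 of them by 2-fold, 2459 calls differed between the lines and TTK changed by -0.54. Of the called genes named, 6 lost their call, CXCL8 and TNF among them.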

Other observations

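Families of other functions showed smaller or mixed changes in CAL-27 shTTK (edgeR, adjusted p under 0.05). Of 36 kinesins, the motors of microtubules, 3 rose and 3 fell, with 5 rises without SCC-15 shTTK replicate 1, and of 15 tubulins 2 rose and 5 fell. Among 13 EGF family ligands and receptors 5 rose and 1 fell, the fall being lost without shTTK replicate 1 or 3. NRG1, AREG and EGFR rose by 0.58, 0.39 and 0.24 on the log2 scale. Of 11 claudins, the strand proteins of tight junctions, 1 rose and 4 fell. Without shControl replicate 1 2 claudins fell, and between 0 (without shControl replicate 3) and 3 (without shControl replicate 2) rose, with 2 rises without shTTK replicate 1 or any one SCC-15 library but shTTK replicate 3. CLDN4 fell from 635, 801 and 708 CPM in the control libraries to 506, 509 and 528 CPM in the shTTK libraries, which did not overlap. Of 13 cathepsins 6 rose and 1 fell, a fall that was lost without any one of the 6 CAL-27 libraries and in SCC-15 without shControl replicate 2 or 3 or shTTK replicate 2. CTSC, a lysosomal protease, rose by 0.54. Of 16 glutathione transferases and peroxidases 6 rose and 1 fell. CDH5, a cadherin best known from endothelium, fell from 106, 108 and 99.5 CPM in the control libraries to 72.04, 70.9 and 71.6 CPM in the shTTK libraries. Of the other 7 endothelial markers the rare PECAM1 fell by 1.42 on the log2 scale, a call lost without shControl replicate 2 or 3 or shTTK replicate 2 or 3, VWF was not called, and the others did not pass the filter on low counts.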
